A study of Homo sapiens with 7 samples.

Results

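Leukocyte immune receptors are surface proteins through which blood cells sense antibodies, sugars and other ligands. Inhibitory members carry tyrosine motifs (ITIMs) that recruit phosphatases such as SHP-1. Activating members signal through motifs of the ITAM type, their own or those of small adaptors such as TYROBP (DAP12). Some use other adaptors, such as HCST (DAP10), which has no ITAM. Many of these genes are switched on as myeloid cells mature, and they lie in clusters of related genes. The set described here holds 50 genes of 20163 protein-coding genes on the nuclear chromosomes, chosen by name from these families: 11 LILR and LAIR1 genes, 10 SIGLEC genes with CD22, 7 Fc receptor genes, 10 C-type lectin genes, 10 TREM, PILR and CD300 genes, and the adaptors TYROBP and HCST. All 50 were found in the GENCODE annotation of GRCh37 (hg19), the build to which the authors aligned their reads. A peak was assigned to a gene when its summit lay in the gene body or within 5 kb to either side.

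The peaks come from ChIP-seq in Kasumi-1, an established cell line grown from the blood of a patient with acute myeloid leukemia. The line carries the t(8;21) translocation and expresses the AML1-ETO fusion protein, and all libraries are from these untreated cells, so there is no cell without the fusion for comparison. The AML1 antibody recognizes the C-terminus, which the fusion lacks, and AML1-ETO was recovered with an ETO antibody; N-CoR is a co-repressor, p300 a co-activator, and H3K4me3 a histone mark of active promoters. A single list per antibody was deposited, from 2 pooled biological replicates, and they hold 19632 peaks (H3K4me3), 18087 (AML1-ETO), 11692 (AML1), 11020 (p300) and 10004 (N-CoR). The lists give positions without heights or read counts, so there is no replicate error, the depth at a peak is unknown and no test between libraries was possible. Peak names in the N-CoR list begin with the letters eto, and those in the p300 and H3K4me3 lists with aml1. Of the intervals in the N-CoR list 92 are identical to an AML1-ETO interval, and 38 are shared by AML1 and p300 and 0 by AML1 and H3K4me3, so none of these lists repeats another, and each was used as its sample label states. H3K4me3 lay within 1000 bp of a start in 8 of 8 myeloblast marker genes (all genes 62.3%). These were CD34, KIT, CD33, CD38, MPO, ELANE, PRTN3 and CSF3R. It did so in 0 of 4 T cell, 0 of 3 natural killer cell, 0 of 2 erythroid, 1 of 2 epithelial (EPCAM) and 0 of 2 liver markers.

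AML1-ETO was the protein found at most of the receptor genes, with a summit at 30 of 50 (60.0%), against 41.3% of all protein-coding genes. N-CoR had a summit at 23 (46.0%, background 26.7%) and AML1 at 21 (42.0%, background 34.9%). For p300, at 19 (38.0%, background 45.5%), and for H3K4me3, at 13 (26.0%, background 68.0%), the share was below that of all genes. At least 3 AML1-ETO summits were found at 7 genes (14.0%, background 9.04%). Any of the 5 lists was present at 33 genes, 66.0%, against 74.2% of all genes. With this margin AML1-ETO, N-CoR and AML1 lay above the background share, and p300, H3K4me3 and the union of the lists below it. When only gene bodies were counted, AML1-ETO had a summit at 17 genes (34.0%, all genes 29.6%), AML1 at 13 (26.0%, all genes 23.01%) and N-CoR at 16 (32.0%, all genes 18.1%). In gene bodies p300 was no longer below the background, at 15 genes (30.0%, all genes 29.8%), whereas H3K4me3 was, at 9 (18.0%, all genes 59.5%). Neighbouring genes share sites, so the genes are not independent of each other, and the shares are given as a description.

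**Figure D1:**
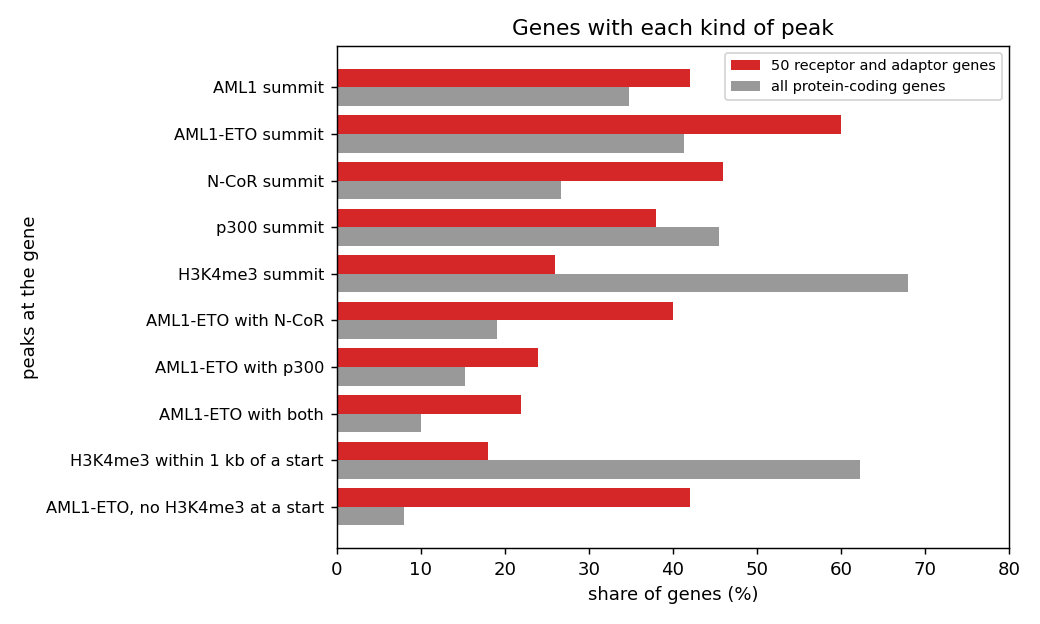
Share of genes (%, horizontal axis) with each kind of peak (vertical axis), for the 50 receptor and adaptor genes (red bars) and for all 20163 protein-coding genes (grey bars). AML1-ETO and N-CoR stand above the background, at 60.0 and 46.0%, and H3K4me3 within 1 kb of a start stands below it, at 18.0 against 62.3%.

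Counted once each, 52 AML1-ETO, 34 N-CoR, 31 AML1, 27 p300 and 20 H3K4me3 summits fell in the windows of the 50 genes, which together cover 1.149 Mb. That is 45.3 AML1-ETO summits per Mb, against 9.22 in the windows of all protein-coding genes. The values were 29.6 against 5.03 for N-CoR, 26.98 against 5.86 for AML1, 23.5 against 6.64 for p300 and 17.4 against 12.4 for H3K4me3. On this scale all 5 lists were denser at the receptor genes. The receptor genes are short, with a median length of 13668 bp against 27219 bp for all genes, so the flanks and starts make up more of their windows, and the part of gene length in these densities was not tested. At the edge of the rule, the AML1-ETO summit farthest outside a gene body but still counted lay 4874 bp from LAIR1, and the nearest that was not assigned to a gene for lying outside its margin was 5117 bp from HCST, a summit that counted for TYROBP instead.

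Of the 50 genes, 8 had summits of all 5 lists, 9 of 4 lists, 5 of 3, 4 of 2 and 7 of a single list. The number of lists per gene was not counted over all genes, so these counts have no background. A summit of any list was found at 66.0% of the 50 and at 74.2% of all genes. The other 17 of the 50 had no summit at all. These were LILRA1, LILRA4, LILRA6, LILRB1, LILRB3 and LILRB4 among the LILR genes, SIGLEC1 and CD22, FCGR2B and FCER1A, CLEC4A, CLEC4C, CLEC4D, CLEC7A and CLEC12B, and TREML1 and CD300E. They include receptors of myeloid cells, such as CLEC7A (Dectin-1), a receptor for fungal glucans, and LILRB4, as well as receptors known mainly from other cells, such as CD22 of B cells and TREML1 of platelets. Reads from near-identical gene copies may not be placed uniquely, and how the aligner treated them is not given in the sources used here. Of the 10 genes with such a copy (LILRA6, LILRB3, FCGR1A, FCGR2A, FCGR2B, FCGR3A, SIGLEC5, SIGLEC11, SIGLEC12 and PILRB), 3 had no summit, against 14 of the other 40. In this annotation the records of LILRA6 (54720737 to 54746649 on chromosome 19) and LILRB3 (54720147 to 54746602) also nearly coincide.

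**Figure D2:**
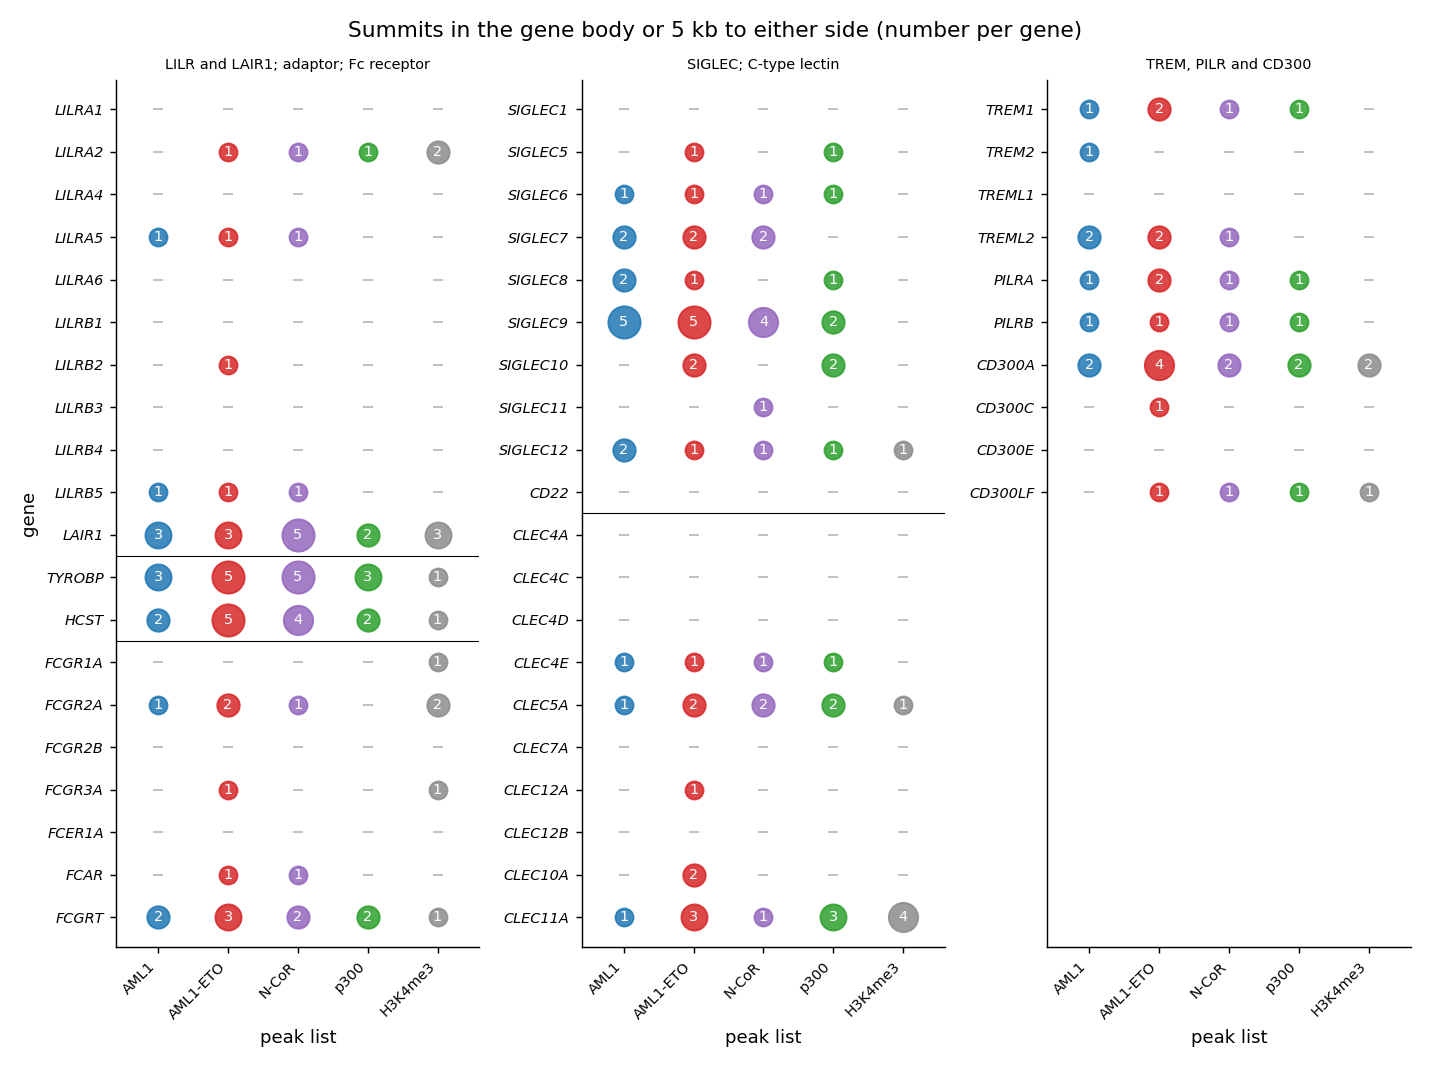
Number of summits (printed inside each circle, whose area grows with it) of the 5 peak lists (horizontal axis) at each of the 50 genes (vertical axis), with a dash where there is none and lines between families. TYROBP, HCST and SIGLEC9 have 5 AML1-ETO summits each, and 17 genes have no circle.

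Co-regulators were read from overlap, where the 100 bp windows around 2 summits share at least 1 bp. Of the 52 AML1-ETO sites at the receptor genes, 25 overlapped N-CoR, 48.1% (exact Clopper-Pearson 95% interval 34.0 to 62.4%), and 14 overlapped p300, 26.9% (15.6 to 41.0%). Over all AML1-ETO peaks these shares were 38.9% and 21.8%, which lie inside the intervals. Both co-regulators were found at 12 sites, N-CoR without p300 at 13, p300 without N-CoR at 2 and neither at 25. AML1 overlapped 27 of the 52, 51.9% (37.6 to 66.0%), against 46.2% of all AML1-ETO peaks. It was on 11 of the 12 sites with both co-regulators, 10 of the 13 with N-CoR alone, 0 of the 2 with p300 alone and 6 of the 25 with neither. This split was not made over all AML1-ETO peaks, so whether it is particular to the receptor genes is not known. The intervals cover counting error over sites only. Counted by gene, 20 of 50 (40.0%, background 19.1%) had an AML1-ETO site with N-CoR, 12 (24.0%, background 15.3%) had one with p300, and 11 (22.0%, background 10.1%) had one with both. At 9 genes (18.0%, background 17.7%) AML1-ETO was present with neither co-regulator on any of its sites.

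The sites that carry these overlaps are shown for each family by the AML1-ETO window with both co-regulators, or else with the most other proteins, that had the lowest peak number and touched no untranslated region. Windows at SIGLEC7, FCAR and CLEC5A were added after their values had been seen, since they hold several of the sequences searched. Each window is 100 bp of the plus strand of GRCh37. Capitals mark the Runx consensus TGTGGT, the PU.1 consensus GAGGAA or the ETS core AGGAAG on either strand, so that their reverse complements are also in capitals, and GAGGAA and AGGAAG can overlap by 5 bases.
LAIR1, chr19:54886989-54887088: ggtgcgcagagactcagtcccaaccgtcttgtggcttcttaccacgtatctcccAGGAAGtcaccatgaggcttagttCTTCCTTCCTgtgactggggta
SIGLEC12, chr19:52006750-52006849: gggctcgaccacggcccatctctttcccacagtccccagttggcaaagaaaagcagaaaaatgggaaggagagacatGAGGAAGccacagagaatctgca
SIGLEC7 and SIGLEC9, chr19:51642726-51642825: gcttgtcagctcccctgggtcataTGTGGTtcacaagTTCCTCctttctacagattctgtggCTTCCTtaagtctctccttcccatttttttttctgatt
FCGRT, chr19:50019294-50019393: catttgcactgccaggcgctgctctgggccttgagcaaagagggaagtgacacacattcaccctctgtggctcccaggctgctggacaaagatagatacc
FCAR, chr19:55387091-55387190: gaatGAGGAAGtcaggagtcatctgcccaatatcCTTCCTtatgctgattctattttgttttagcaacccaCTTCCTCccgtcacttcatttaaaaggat
CLEC4E, chr12:8690610-8690709: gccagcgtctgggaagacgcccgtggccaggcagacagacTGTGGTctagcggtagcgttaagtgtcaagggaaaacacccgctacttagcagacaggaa
CLEC5A, chr7:141645367-141645466: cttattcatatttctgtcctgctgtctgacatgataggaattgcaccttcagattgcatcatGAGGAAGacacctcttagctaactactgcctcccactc
CD300A, chr17:72459744-72459843: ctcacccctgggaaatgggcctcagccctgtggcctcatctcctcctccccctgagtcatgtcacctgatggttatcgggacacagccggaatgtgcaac
TYROBP, chr19:36400346-36400445: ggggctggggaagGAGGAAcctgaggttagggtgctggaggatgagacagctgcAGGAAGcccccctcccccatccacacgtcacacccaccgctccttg

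Among these windows the Runx consensus appears at CLEC4E and SIGLEC7, an ETS or PU.1 sequence without it at LAIR1, SIGLEC12, FCAR, CLEC5A and TYROBP, and none of the 3 at FCGRT and CD300A. Over all 52 AML1-ETO windows at the receptor genes, TGTGGT was present in 11, 21.2% (11.1 to 34.7%), against 31.3% of all AML1-ETO windows. GAGGAA was present in 20, 38.5% (25.3 to 53.0%), against 26.0%, and AGGAAG in 25, 48.1% (34.0 to 62.4%), against 37.5%. Of the 104 windows centred 1000 bp upstream or downstream of these summits, 5.77, 8.65 and 12.5% held the Runx, PU.1 and ETS sequences. A PU.1 or ETS sequence without the Runx consensus was found in 22 windows (42.3%, against 30.9% of all AML1-ETO windows), and none of the 3 in 19 (36.5%, against 37.8%). The shares of all AML1-ETO windows for the Runx consensus and for the ETS core lie inside the intervals of the 52, and that for PU.1 lies near the lower end of its interval. Among AML1-ETO windows at all protein-coding genes the PU.1 sequence was in 24.7%, just below its interval. The Runx and ETS sequences were in 29.0 and 35.8% of these, inside theirs. A match is a description of the letters and does not show which factor was bound.

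LAIR1, an inhibitory collagen receptor of most leukocytes, had the most summits of the 11 LILR and LAIR1 genes, and lies on chromosome 19 from 54862991 to 54882165. It had 3 AML1-ETO, 3 AML1, 5 N-CoR, 2 p300 and 3 H3K4me3 summits. All 3 AML1-ETO sites overlapped both AML1 and N-CoR. The site 4874 bp upstream of the gene, shown above, also overlapped p300, and the site 93 bp upstream of the 5′-most start had its N-CoR summit 4 bp and its AML1 summit 35 bp away. At an internal start, AML1-ETO peak number 2389 (54876637 to 54876736) stood 10 bp downstream, while the p300 summit lay 157 bp from it, outside the overlap distance. H3K4me3 summits lay 56 and 758 bp from LAIR1 starts, and another 265 bp from the upstream AML1-ETO site. A further pair of N-CoR summits upstream of the gene, the nearer 1807 bp from a start, overlapped neither AML1 nor AML1-ETO.

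The remaining LILR genes had at most a single AML1-ETO summit each. LILRA2, an activating receptor, had single AML1-ETO, N-CoR and p300 summits 15, 23 and 2 bp from the same start (55084352 to 55084451 for the AML1-ETO window), no AML1, and H3K4me3 58 bp from a start. LILRA5, also activating, had AML1, AML1-ETO and N-CoR at a shared site from 54813770 to 54813869, past the 3′ end of the gene and 9113 bp from its start. At LILRB5, an inhibitory receptor, the shared site of the same 3 proteins (AML1-ETO peak number 638, 54752010 to 54752109) lay in an untranslated exon of the neighbouring ribosomal protein gene RPS9. LILRB2, an inhibitory receptor for MHC class I, had an AML1-ETO summit 24 bp upstream of its start and no other summit. H3K4me3 lay within 1000 bp of a start in 2 of the 11 genes, LILRA2 and LAIR1 (all genes 62.3%).

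SIGLEC genes encode lectins that bind sialic acid, and most members carry ITIMs. AML1-ETO had a summit at 7 of 10 (all genes 41.3%) and N-CoR at 5 (all genes 26.7%). The 11 AML1-ETO sites overlapped N-CoR at 5 and p300 at 1, where 38.9 and 21.8% of all AML1-ETO peaks did. SIGLEC9, found on monocytes and neutrophils, had 5 AML1-ETO, 5 AML1, 4 N-CoR, 2 p300 and no H3K4me3 summits. Of its AML1-ETO sites, 4 overlapped AML1 and 3 overlapped N-CoR, and none overlapped p300. One of these lies in a coding exon, 939 bp from a start (51631176 to 51631275), and a pair of them, from 51641965 to 51642064 and from 51642726 to 51642825, lies between SIGLEC9 and SIGLEC7. This pair is also the whole binding at SIGLEC7, an inhibitory receptor of natural killer cells and monocytes, the nearer 2780 bp upstream of its start. The nearest H3K4me3 summit to a SIGLEC9 start was 16128 bp away, and to a SIGLEC7 start 33521 bp.

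SIGLEC6 was the family's gene with all 4 proteins on a shared site. AML1-ETO peak number 785 (52034936 to 52035035) stood 15 bp from a start, with AML1, N-CoR and p300 summits 22, 12 and 25 bp from it, and the nearest H3K4me3 summit was 30186 bp away. SIGLEC12, by contrast, had H3K4me3 226 bp and p300 72 bp downstream of a start and AML1 15 bp upstream of it, while its AML1-ETO site with AML1 and N-CoR lay 1746 bp upstream. SIGLEC8 of eosinophils had 1 AML1-ETO, 2 AML1 and 1 p300 summits, and SIGLEC10 had 2 AML1-ETO and 2 p300 summits that did not overlap each other. SIGLEC5 had 1 AML1-ETO and 1 p300 summit apart from each other, and SIGLEC11 a single N-CoR summit. H3K4me3 lay within 1000 bp of a start in 1 of the 10 genes, SIGLEC12 (all genes 62.3%).

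Fc receptors bind antibodies through their constant part. AML1-ETO had a summit at 4 of 7 genes (all genes 41.3%). FCGRT, which carries IgG across cells and protects it from breakdown, had 3 AML1-ETO, 2 AML1, 2 N-CoR, 2 p300 and 1 H3K4me3 summits. Its AML1-ETO site 62 bp upstream of a start overlapped p300 and not N-CoR, and its site 2029 bp downstream of a start, shown above, overlapped AML1, N-CoR and p300. FCGR2A, the activating IgG receptor of myeloid cells, had an AML1-ETO summit 40 bp upstream of its start with no other protein on it, and a second 219 bp from another start (161476610 to 161476709 on chromosome 1) with AML1 23 bp and N-CoR 28 bp away. H3K4me3 stood 126 bp from a FCGR2A start.

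FCAR, the IgA receptor of myeloid cells, had AML1-ETO and N-CoR summits 5 bp apart in an intron 1395 bp from its start, with no AML1, p300 or H3K4me3 summit at the gene. FCGR3A had an AML1-ETO and an H3K4me3 summit past its 3′ end, 9282 and 9722 bp from its start. FCGR1A had an H3K4me3 summit alone, which lies in an intron of the histone gene H2BC18. The Fc receptors with H3K4me3 at a start were FCGR2A and FCGRT.

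C-type lectins recognize sugars and other patterns on microbes and damaged cells. Here 5 of 10 genes had AML1-ETO, near the 41.3% of all genes, and the same 5 were those with a summit of any list (all genes 74.2%). CLEC4E (Mincle), an activating receptor for mycobacterial glycolipids, had exactly 1 summit of each of the 4 proteins, all in an intron. The AML1, N-CoR and p300 summits stood 8, 2 and 15 bp from that of AML1-ETO, 1191 bp from the start, and the nearest H3K4me3 summit was 159334 bp from it. CLEC5A, which signals through TYROBP, had all 4 proteins at its intronic site 1270 bp from the start, with H3K4me3 141 bp from the start. A further N-CoR and p300 pair, 141628087 to 141628186 for N-CoR, lay in an untranslated exon near the 3′ end of CLEC5A without AML1 or AML1-ETO. CLEC11A, a secreted growth factor of blood and bone progenitors, had all 4 proteins 96 bp upstream of its start and H3K4me3 54 bp from it. It also had 2 AML1-ETO and 2 p300 summits that overlapped no other protein.

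CLEC12A, a surface marker of myeloid leukemia cells and of immature and mature myeloid cells, had a single AML1-ETO summit 79 bp upstream of a start. CLEC10A, the galactose lectin of macrophages and dendritic cells, had AML1-ETO summits 13 and 1593 bp upstream of its start. No AML1, N-CoR, p300 or H3K4me3 summit was assigned to either gene.

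TREM and CD300 genes encode paired activating and inhibitory receptors of myeloid cells, and PILRA and PILRB are a similar pair. AML1-ETO had a summit at 7 of 10 (all genes 41.3%), and 4 of its 12 sites overlapped N-CoR, near the 38.9% of all AML1-ETO peaks. CD300A, an inhibitory receptor for phospholipids of dying cells, had 4 AML1-ETO, 2 AML1, 2 N-CoR, 2 p300 and 2 H3K4me3 summits. The site 2744 bp upstream (AML1-ETO peak number 835, shown above) overlapped AML1, N-CoR and p300 at 20, 63 and 42 bp. The CD300A site 108 bp from a start overlapped N-CoR at 85 bp, with p300 103 bp and H3K4me3 342 bp away. The intronic site at 72474982 to 72475081 overlapped AML1 alone. CD300LF, also inhibitory, had AML1-ETO and p300 22 bp apart at its start with H3K4me3 176 bp from it, and its N-CoR summit lay elsewhere. CD300C had AML1-ETO alone, 38 bp upstream of its start.

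TREM1, which amplifies inflammation through TYROBP, had an intronic AML1-ETO site at 41239749 to 41239848 on chromosome 6 with AML1, N-CoR and p300 80, 34 and 51 bp away. A second intronic AML1-ETO site of TREM1 overlapped none of them. TREML2 had 2 AML1-ETO sites, each with AML1, of which 1 stood 11 bp upstream of the start. PILRA and PILRB shared a site in an intron of PILRA (99966918 to 99967017 on chromosome 7), where the N-CoR summit fell on the same base as that of AML1-ETO and AML1 stood 54 bp away. PILRA also had AML1-ETO 5 bp from a start with no other protein on it. TREM2 had a single AML1 summit.

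The adaptors TYROBP and HCST are adjacent and share most of their sites, 6 distinct AML1-ETO summits in 0.01577 Mb. TYROBP had 5 AML1-ETO, 3 AML1, 5 N-CoR, 3 p300 and 1 H3K4me3 summits, and HCST had 5, 2, 4, 2 and 1 in the same order. AML1-ETO peak number 300 (36393338 to 36393437), 43 bp upstream of the HCST start, overlapped AML1, N-CoR and p300 at 32, 14 and 43 bp. The p300 summit fell on the annotated start of HCST. AML1-ETO peak number 20, in a coding exon of HCST, and number 4, 1199 bp upstream of TYROBP and shown above, also overlapped AML1, N-CoR and p300. The 2 AML1-ETO sites farthest from TYROBP, numbers 6580 and 17649, had no other protein on them and lay in the neighbouring gene NFKBID, as did the H3K4me3 summit, 158 bp from an NFKBID start. Thus neither adaptor had H3K4me3 within 1000 bp of its own starts; the nearest summit was 2166 bp from that of HCST and 7860 bp from that of TYROBP. Without this pair of genes, 45.7% of the AML1-ETO sites overlapped N-CoR and 23.9% overlapped p300.

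**Figure D3:**
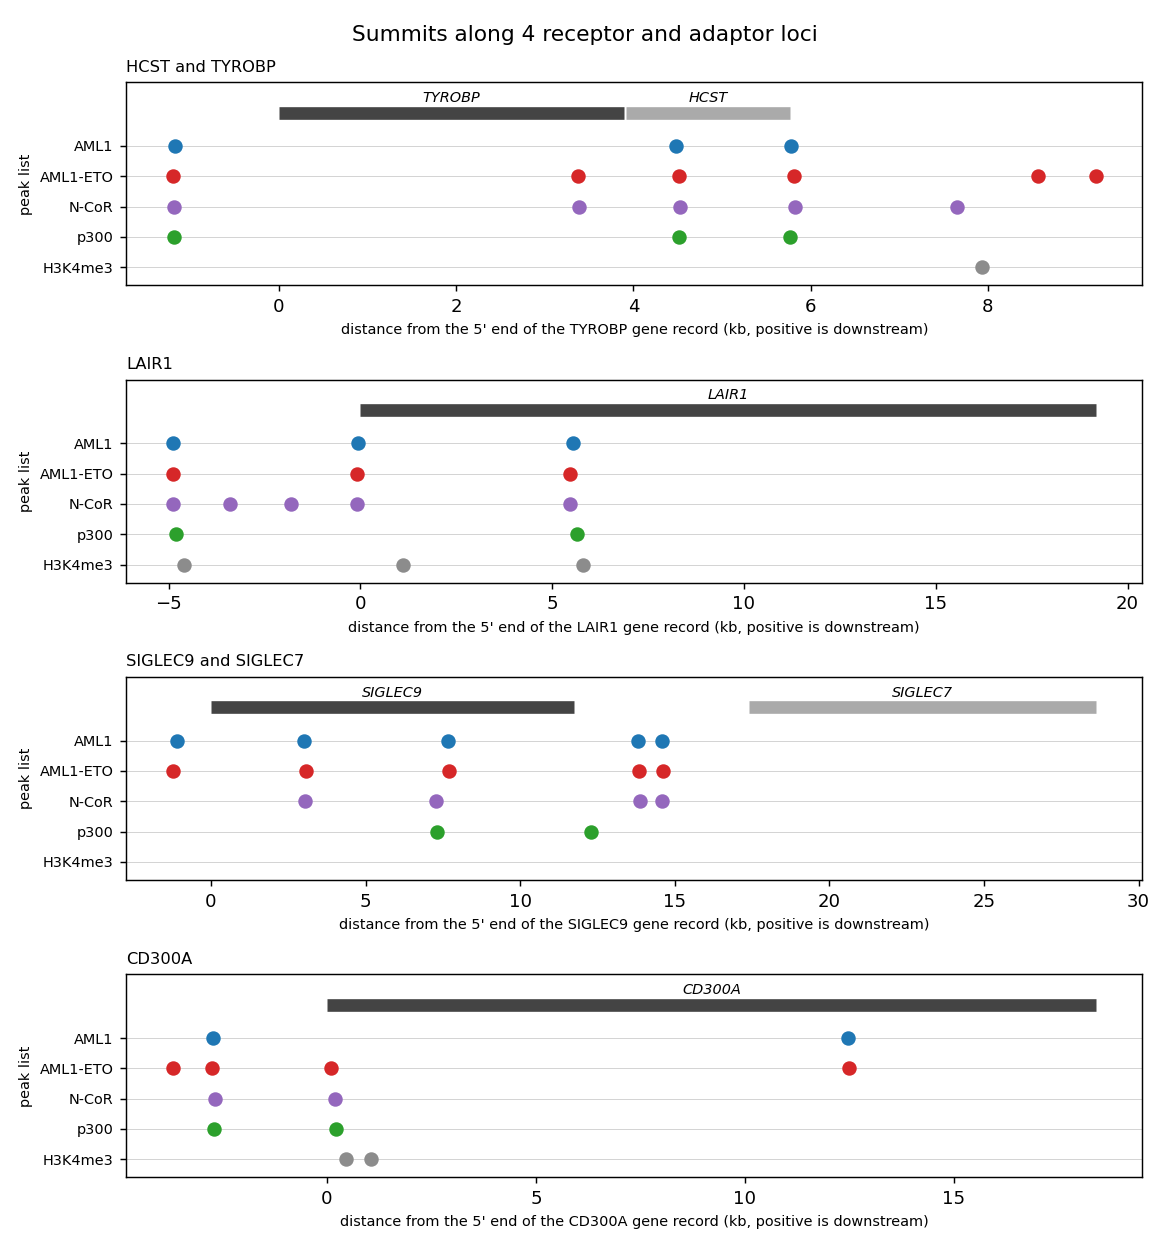
Summits of the 5 lists (rows) against distance from the 5′ end of the gene (kb, horizontal axis, positive is downstream) at TYROBP with HCST, LAIR1, SIGLEC9 with SIGLEC7, and CD300A, with gene bodies as bars. AML1, AML1-ETO and N-CoR points stand in columns at LAIR1 and between SIGLEC9 and SIGLEC7; LAIR1 has 3 H3K4me3 summits and the panel of SIGLEC9 and SIGLEC7 has none.

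H3K4me3 was found within 1000 bp of a start at 9 of the 50 genes (18.0%), against 62.3% of all protein-coding genes. These were LILRA2, LAIR1, SIGLEC12, FCGR2A, FCGRT, CLEC5A, CLEC11A, CD300A and CD300LF, and every one of them also had AML1-ETO. The other 21 of the 30 genes with AML1-ETO had no H3K4me3 at a start, 42.0% of the 50 genes against a background of 8.01%. Of all protein-coding genes, 12565 had H3K4me3 at a start and 8337 had AML1-ETO. Among those 8337, 1615 had no H3K4me3 at a start and the rest had both. H3K4me3 lay within 1000 bp of 11 of the 52 AML1-ETO sites, 21.2% (11.1 to 34.7%), against 27.4% of all AML1-ETO peaks and 33.9% of those at protein-coding genes.

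AML1-ETO sites close to starts were also counted, a distance chosen after their values had been seen. An AML1-ETO summit lay within 1000 bp of a start at 16 genes (32.0%, background 23.3%), and 15 sites lay within 100 bp of a start. Of these 15, 6 had H3K4me3 within 1000 bp, 40.0% (16.3 to 67.7%), whereas this was so for 84.1% (82.6 to 85.6%) of the 2454 AML1-ETO sites within 100 bp of a start of any protein-coding gene. No test was made, since the distance was chosen with these values in view, and the count is not independent of the share of genes with H3K4me3 at a start. N-CoR overlapped 6 of the 15 and p300 also 6, 40.0% each, against 32.4 and 41.0%. At CLEC12A, CLEC10A, CD300C, LILRB2 and PILRA the AML1-ETO site at the start had no AML1, N-CoR, p300 or nearby H3K4me3, 5 of 15 (33.3%, 11.8 to 61.6%), against 5.79% of the 2454. The peak numbers of these 5 sites ran from 8969 to 13629 of the AML1-ETO list.

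**Figure D4:**
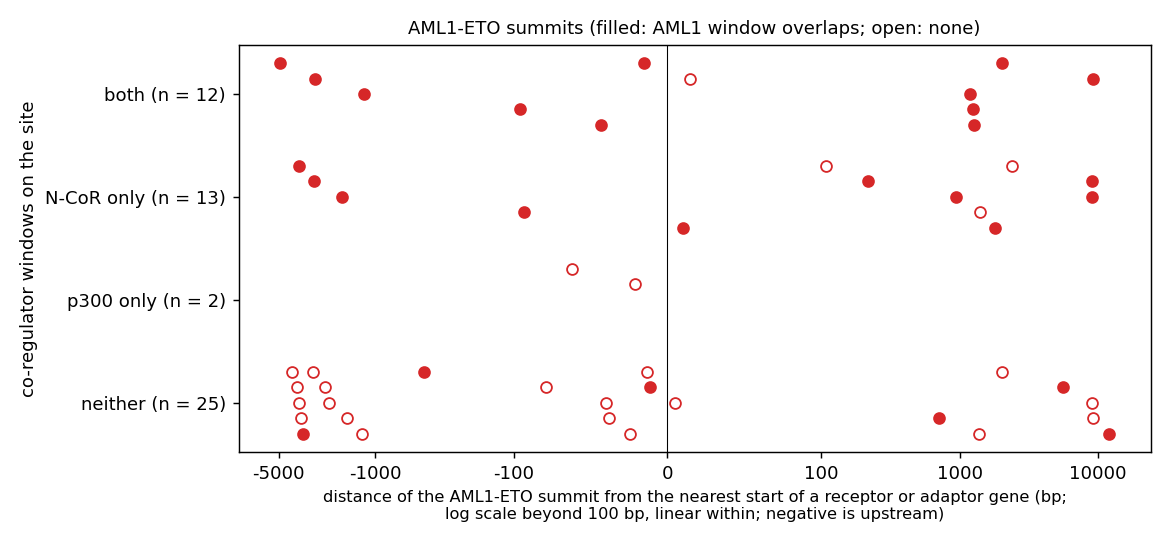
Distance of each of the 52 AML1-ETO summits from the nearest start of a receptor or adaptor gene (bp, horizontal axis, log scale beyond 100 bp) by the co-regulator windows on the site (vertical axis). Filled points overlap AML1 and open points do not, and 11 of the 12 sites with both co-regulators and 6 of the 25 with neither are filled. The same split was not made over all AML1-ETO peaks.

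Most AML1 sites at the receptor genes were shared with AML1-ETO, 27 of 31 or 87.1% (70.2 to 96.4%), against 71.5% of all AML1 peaks. The exceptions were at TREM2, SIGLEC8, SIGLEC9 and SIGLEC12. Of the 34 N-CoR sites, 25 overlapped AML1-ETO, 73.5% (55.6 to 87.1%, all N-CoR peaks 70.3%), and of the 27 p300 sites 14 did, 51.9% (31.9 to 71.3%, all p300 peaks 35.8%). The median distance from an AML1-ETO summit to the overlapping summit was 17 bp for N-CoR, 33 bp for AML1 and 35 bp for p300, against 21, 20 and 28 bp over all AML1-ETO peaks. AML1-ETO sites lay between genes (24), in introns (19), in exons of non-coding transcripts (3), in untranslated exons (4) and in coding exons (2), with a median of 1384.5 bp to the nearest start of a receptor or adaptor gene.

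By role, AML1-ETO had a summit at 14 of 23 inhibitory receptor genes and at 10 of 20 activating ones (all genes 41.3%), at both adaptors and at 4 of the 5 genes in neither class. Sites with N-CoR were found at 8 of 23 inhibitory and 8 of 20 activating genes (all genes 19.1%), and sites with p300 at 4 of each, near the 15.3% of all genes. A p300 summit of any kind was found at 10 of 23 inhibitory and 5 of 20 activating genes (all genes 45.5%), and 3 or more AML1-ETO summits at 3 and 0 (all genes 9.04%). The inhibitory genes had 24 AML1-ETO sites, 39.6 per Mb, and the activating genes 13, 28.0 per Mb. The difference between the classes was not tested.

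Downstream of the receptors, 16 signalling genes were taken from textbook knowledge, with earlier results of these data known. AML1-ETO had a summit at 15 of 16 (all genes 41.3%), a site shared with N-CoR at 14 (all genes 19.1%) and a site shared with p300 at 12 (all genes 15.3%), and H3K4me3 lay at a start of 15 (all genes 62.3%). These genes are long, with a median of 86146.5 bp. Per Mb of their windows they had 57.8 AML1-ETO, 37.9 N-CoR, 27.5 AML1, 24.8 p300 and 20.7 H3K4me3 summits, beside 45.3, 29.6, 26.98, 23.5 and 17.4 at the receptor genes. BTK, a kinase, was the gene without AML1-ETO. FCER1G, the shared ITAM chain of Fc receptors and several lectins, was the gene without H3K4me3, with 2 AML1-ETO, 1 AML1, 1 N-CoR and no p300 summits. VAV1, an exchange factor, had 7 AML1-ETO sites, of which 6 overlapped N-CoR and 5 overlapped p300, and PTPN6 (SHP-1), the phosphatase that ITIMs recruit, had 3, all with N-CoR and 1 with p300.

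Among 31 other receptor genes of the same chromosome clusters, AML1-ETO had a summit at 5 (all genes 41.3%), N-CoR at 3 (all genes 26.7%), p300 at 0 (all genes 45.5%) and H3K4me3 at 6 (all genes 68.0%), each a smaller share than over all genes. The 9 KLR genes of natural killer cells had no AML1-ETO, and the 7 KIR genes had a single site, shared by KIR2DS4 and KIR3DL2, with no other protein on it. CD33, the myeloid SIGLEC that is used as a leukemia marker, had 4 AML1-ETO sites, 3 with N-CoR and none with p300, and H3K4me3 at a start. GP6, the collagen receptor of platelets, had 4 AML1-ETO sites, 1 of them with N-CoR. KIR genes also have near-identical copies.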

How the data were processed

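Peak positions from ChIP-seq of 4 proteins and H3K4me3 in Kasumi-1 cells were used. The submitters' processing notes name CASAVA 1.6, Bowtie 0.12.8 and MACS2 2.0.10.20131216. The authors aligned reads to GRCh37 with up to 2 mismatches, pooled 2 biological replicates per antibody and called peaks at p < 1e-20. The deposited lists hold only positions, as 100 bp intervals in BED format, and no score. A summit was taken 50 bp from the start of its interval, and coordinates here are counted from 1. Genes, starts and exons came from GENCODE release 44 lifted to GRCh37, with the starts of all transcripts of a gene. Windows overlapped when they shared 1 bp. The list of genes with near-identical copies came from general knowledge. Shares have exact 95% intervals (SciPy 1.17.1). Python 3.11.15, pysam 0.24.0 and matplotlib 3.10.9 were used, and counting was tested on simulated data.

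The members and gene lists were chosen with earlier results of these data known. In each family, up to 4 genes with the most AML1-ETO sites shared with N-CoR or p300 were described with positions; genes with no summit, and those with H3K4me3 at a start, were named. Other genes were named after their values were seen. LILRA3, on the list of neighbours, had no locus in the annotation. Alternatives changed the margin, window width, gene model, members, distances and the part of each list used. H3K27me3 and input were not analysed here. The B cell marker list is not reported here.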

Additional observations from a re-analysis of the deposited data

How the results depend on the processing

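Each comparison was recomputed under the alternatives that bear on it, 120 values in all, of which 98 stayed within 1.5 times the reported count or inside the reported interval. With protein-coding transcripts only, every value was that of the main setting, and the intervals of the shares are wide. The count of 98 is therefore not a measure of robustness. Without a margin around the gene body, AML1 had a summit at 13 genes (all genes 23.01%) and AML1-ETO at 17 (29.6%), with 15 AML1, 23 AML1-ETO, 19 N-CoR and 12 H3K4me3 summits in all, and 7 genes had AML1-ETO with p300 (all genes 9.57%). With the first part of each list by peak number, up to its midpoint, N-CoR had a summit at 15 genes (all genes 13.8%), p300 at 9 (27.9%) and H3K4me3 at 7 (51.7%), and the summits numbered 18 for AML1, 28 for AML1-ETO, 12 for p300 and 8 for H3K4me3. That setting left 13 genes with AML1-ETO and N-CoR (all genes 10.17%), 6 with AML1-ETO and p300 (6.1%), and 5 with H3K4me3 at a start (46.8%); fewer peaks enter it by construction, and the number is not known to be a score. Searching within 100 bp of the summit gave 36.5% for Runx, 53.8% for PU.1 and 67.3% for ETS, and within 25 bp 13.5% for PU.1 and 28.8% for ETS, as window length alone changes. The share of AML1-ETO sites with N-CoR ranged from 40.4 to 60.9% and that with p300 from 19.2 to 34.8%. No paired analysis was possible because replicates were pooled before peak calling. Stricter peak thresholds were not run, since the lists have no score.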

Other observations

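Several sites in the windows of the receptor genes lie in or nearest to genes of other kinds. RPS9, which encodes a ribosomal protein, holds the LILRB5 site with AML1, AML1-ETO and N-CoR. At CD300LF, N-CoR peak number 7166 (72686645 to 72686744 on chromosome 17) lies in an intron of RAB37, a gene of vesicle transport. SHANK1 holds 2 of the 4 H3K4me3 summits assigned to CLEC11A, 214 and 887 bp from SHANK1 starts, and the nearest start to the CLEC11A AML1-ETO peak number 13003 is also that of SHANK1. An H3K4me3 summit past the end of FCGR2A stands 168 bp from the start of HSPA6, a heat shock protein gene. The second AML1-ETO site of CLEC5A, 3980 bp upstream of it, lies in an intron of MGAM, an intestinal enzyme gene.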
